A study of Sus scrofa with 12 samples.

Results

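The genes described here are those whose array name is a plain CD number, the catalogue of leukocyte surface antigens, such as CD2, CD40 or CD59. A gene was included where a probe set carried that symbol and no other, and CD3E, CD3G, CD14 and CD163 were left out. This gave 37 genes of the 6765 that had a probe set with a single symbol. Each gene was read from the probe set with the highest mean signal over all arrays, and 30 of the 37 passed the filter on low values and were tested. The samples were segments of coronary artery of Yorkshire farm pigs, all of which had undergone angioplasty and stenting, taken 28 days later. A stent was bare metal (BMS) or released a drug, either sirolimus (sirolimus-eluting, SES) or its analog zotarolimus (zotarolimus-eluting, ZES), with each type represented by 4 segments from 2 pigs, and no segment without a stent was analysed here. Both drugs bind FKBP12 and inhibit the mTOR kinase, which slows cell division. Of the 6 pigs, 5 gave a segment of the left anterior descending artery (LAD) beside one of the right coronary artery (RCA); the pig of SES 1 and SES 2 gave left circumflex artery and RCA. Segments are named by stent and number, with 1 and 2 from 1 pig and 3 and 4 from the other. The LAD segments were BMS 2, BMS 4, SES 4, ZES 2 and ZES 4, so SES 4 was the only one with SES. The stent comparisons had no term for the artery, so its part in them was not tested. Every pig carried a single stent type, and with 2 pigs per type the tests weigh differences against how much segments vary more than how much animals do.

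CD numbers are given to cell surface proteins by the antibodies that recognise them, and the proteins have little in common beyond that. Some are nearly restricted to 1 lineage, such as the T cell co-receptors CD4 and CD8. Others, among them the tetraspanins, the complement regulators and CD47, are carried by almost every cell, vascular smooth muscle and endothelium included. A stented artery draws in macrophages and lymphocytes while the wall forms new intima, so the lineage antigens and the broad ones report on different cells of the same segment. Not every member sits on the surface: CD5L is secreted by macrophages, and CD1E acts inside antigen-presenting cells.

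Signals were log2 values on one scale, and an array's background level was taken as the 95th percentile of control probe sets whose targets had not been spiked in. Of the 37 genes, 17 were above background on all 12 arrays, 13 on 6 to 11 arrays and 6 on 1 to 5 arrays, and CD40LG was above it on no array. The 7 genes under the filter were CD247, CD38, CD3D, CD4, CD40LG, CD5L and CD8B. The lineage label was borne out unevenly: the pan-leukocyte protein CD53 was above background on all 12 arrays, while the T cell receptor chain CD3D was above it on 5, CD4 on 2 and CD8B on 1. In whole tissue, fewer cells of a type and less RNA per cell cannot be told apart.

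Some array-wide measures moved with the stent groups. The background level read 5.51 ± 0.31 on BMS arrays against 4.72 ± 0.54 on SES and 4.72 ± 0.41 on ZES arrays (mean ± SD, n = 4). Spike-in controls read 16.30 ± 0.38, 15.09 ± 0.43 and 15.30 ± 0.58 in the same order. The signal of GAPDH near its 3' end minus that near its 5' end, averaged over both probe sets per end, was 2.71 to 3.81 with SES, against 4.13 to 5.67 with BMS and 4.15 to 5.09 with ZES. Of the 8 listed smooth muscle markers 6 were measured, 5 of them above background on every array. Their mean signal ran from 11.15 to 12.22 with BMS, from 7.86 to 8.56 on SES 1 to SES 3 with 11.33 on SES 4, and from 9.49 to 12.62 with ZES. The 7 measured of 12 T and NK cell markers, 2 of which are among the 37 genes, averaged 3.99 to 4.95 with BMS, 6.22 to 7.81 with SES and 5.68 to 6.88 with ZES. With BMS 35.71% of these T and NK cell signals were above background, against 89.29% with SES and 89.29% with ZES. The BMS means of this list therefore have no reliable size. The 7 measured of 11 monocyte and macrophage markers overlapped between the groups, at 8.40 to 10.25, 8.83 to 9.61 and 8.51 to 9.37. No defining marker of these lists was below background on every array, and the part of these measures in the results below was not tested.

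**Figure D1:**
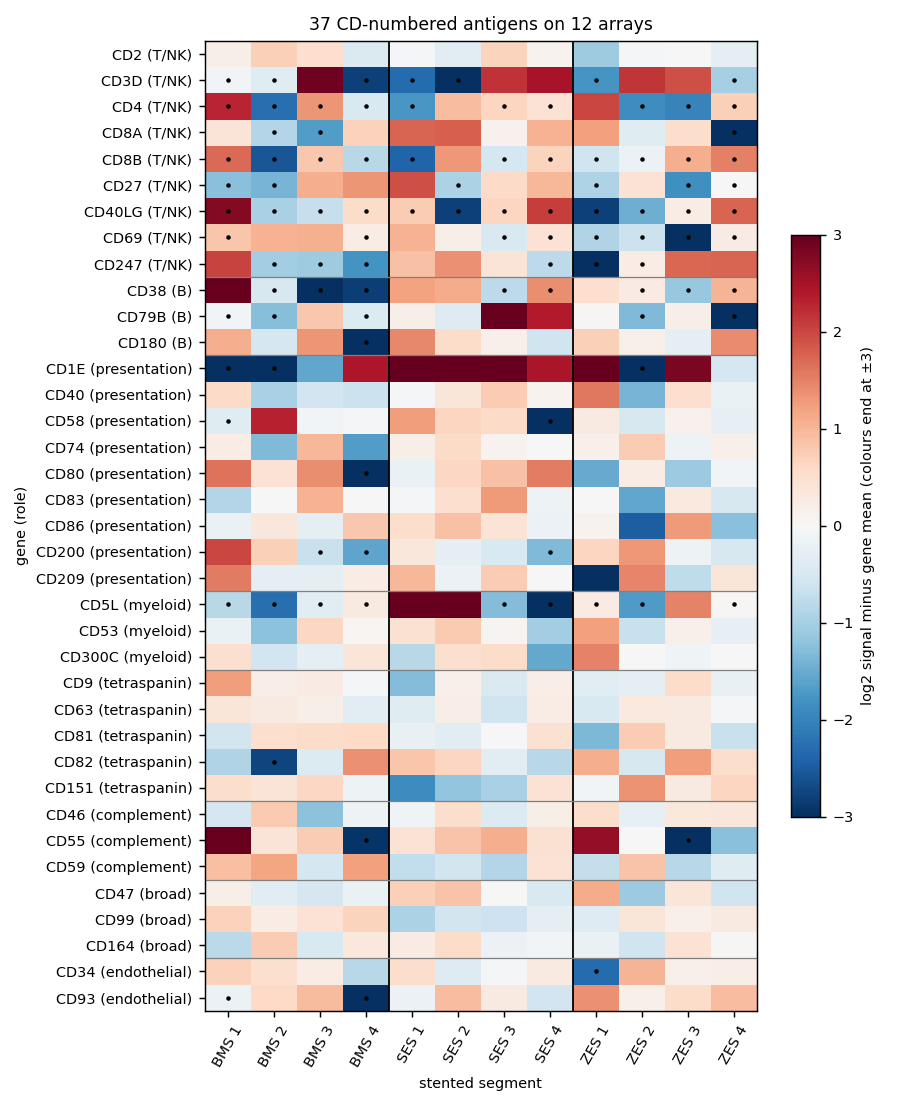
Signal of the 37 CD-numbered genes (one per line, grouped by role) on the 12 arrays (columns), as log2 signal minus the gene's mean, with colours ending at 3 above or below. Dots mark signals not above the array's background; they gather in the T and NK cell genes, where CD40LG has 12 dots, and are absent from 17 genes.

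None of the 30 tested genes passed an adjusted p of 0.05 in any comparison of stents or arteries (limma with Benjamini-Hochberg adjustment over all 16799 probe sets). For SES against BMS the share of all probe sets that passed was 0.679%, for ZES against BMS 0%, for ZES against SES 0.0714% and for the 3 stents together (F test) 0.345%. At an unadjusted p under 0.05 there were 4 genes for SES against BMS, where the share among all probe sets was 14.3%: 1 was higher (CD1E; 7.33% of all probe sets) and 3 were lower (CD99, CD151 and CD59; 7.01%). For ZES against BMS there were 3, against 8.99% of all probe sets: 1 higher (CD1E; 4.72%) and 2 lower (CD59 and CD69; 4.27%). For ZES against SES there were 3, against 10.0%: 2 higher (CD151 and CD99; 5.66%) and 1 lower (CD79B; 4.38%). The F test gave 4 at that level, against 13.4%. Read against these shares, the counts are close to those of all probe sets. Genes whose 4 arrays with one stent all lay above or all below the 4 with the other numbered 1 and 1 for SES against BMS, described below. There were 0 for ZES against BMS, where 1.58% of all probe sets were wholly higher and 2.23% wholly lower, and 0 for ZES against SES, where 2.94% and 3.06% were.

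The median difference over the tested genes was 0.25 for SES against BMS, with 18 higher and 12 lower, beside a median of -0.020 over all probe sets. It was -0.39 for ZES against BMS, with 12 higher and 18 lower, beside -0.014, and -0.20 for ZES against SES, with 14 higher and 16 lower, beside -0.022. None of these medians kept its sign in every alternative. With the GAPDH measure as a covariate SES minus BMS was -0.15 and ZES minus SES was 0.13, the latter was 0.037 without ZES 1, and ZES minus BMS was 0.0041 without the pig of BMS 1 and BMS 2. The 3 comparisons share their groups, so they are not independent of each other.

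**Figure D2:**
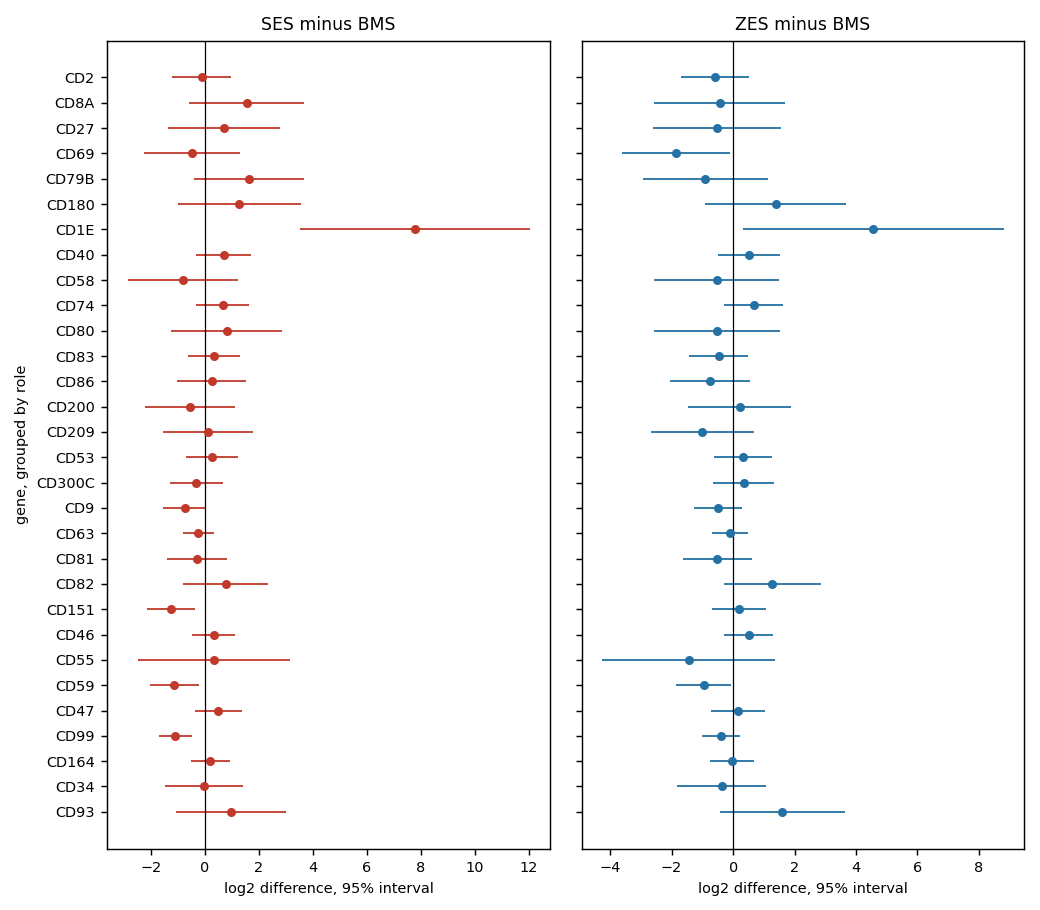
Log2 differences of the 30 tested genes (points) with their 95% intervals (lines) for SES minus BMS and ZES minus BMS, ordered by role; both panels use the same BMS arrays. Most intervals cross 0; that of CD1E in the SES panel is wide, from 3.52 to 12.04, and its lower end lies just under the upper ends of CD8A and CD79B, at 3.67 and 3.65. For CD1E, BMS 1 and BMS 2 were within background, so its difference has no reliable size in either panel.

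Of the 9 T and NK cell antigens, 4 were tested, and none differed between stents past the threshold. CD2, an adhesion receptor of T and NK cells, was 6.97, 7.52, 7.31 and 6.36 on BMS 1 to 4, 6.75, 6.49, 7.47 and 6.91 on SES 1 to 4, and 5.74, 6.75, 6.78 and 6.53 on ZES 1 to 4. All 12 signals were above background and the groups overlapped, with SES minus BMS at -0.13 (95% interval -1.22 to 0.96). CD8A, the co-receptor chain of cytotoxic T cells that also marks many porcine NK cells, was 6.49, 5.22, 4.43 and 6.80 with BMS, 7.85, 7.89, 6.23 and 7.14 with SES and 7.33, 5.73, 6.63 and 1.51 with ZES. It was above background on 2 BMS arrays, on all 4 SES arrays and on 3 ZES arrays. Its difference was 1.54 ± 1.01 for SES minus BMS (log2, estimate ± SE; adjusted p = 0.511) and -1.98 ± 1.01 for ZES minus SES (adjusted p = 0.535). The interval for SES minus BMS ran from -0.59 to 3.67, so values from slightly lower to much higher with SES lie within it.

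CD69, an early activation antigen, was noticed after its values were seen. Its signals were 5.71, 5.93, 5.95 and 5.10 with BMS, 5.92, 5.07, 4.44 and 5.32 with SES and 4.00, 4.25, 1.87 and 5.13 with ZES. It was not above background on any ZES array and was above it on 2 arrays of each other group, so no size is given for its difference, which did not pass the test for ZES against BMS (adjusted p = 0.529). ZES 4 overlapped the BMS range. CD27, a costimulatory receptor of lymphocytes, ran from 2.72 to 6.51 over all arrays and was above background on 6.

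CD4, the co-receptor of helper T cells, was above background on SES 2 at 4.46 and ZES 1 at 5.56 and on no BMS array, where it read 5.83, 1.29, 4.87 and 3.09. The other SES signals were 1.80, 4.20 and 3.99, and the other ZES signals 1.68, 1.55 and 4.26. Because background was higher with BMS, the BMS 1 signal of 5.83 counted as background although it was the highest of the 12. CD3D was above background on BMS 3 at 6.19, SES 3 at 5.45, SES 4 at 5.75, ZES 2 at 5.42 and ZES 3 at 5.21, so it was seen in each stent group and in 4 of the 6 pigs. CD247, the zeta chain of the T cell receptor, was above background on 6 arrays. CD8B was above it on SES 2 alone, at 4.75. CD40LG, the T cell ligand of CD40, read between 0.00 and 5.55, always within background.

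Among the B cell antigens, CD79B and CD180 were tested and CD38 was not. CD79B, a signalling chain of the B cell receptor, was 5.56, 4.37, 6.46 and 5.22 with BMS, 5.82, 5.26, 8.97 and 8.03 with SES and 5.67, 4.32, 5.82 and 2.18 with ZES. The 2 high arrays, SES 3 and SES 4, came from the same pig, and the other SES pig lay within the BMS range. ZES minus SES was -2.52 ± 0.96 (adjusted p = 0.375), and without the pig of SES 3 and SES 4 it was -1.04. The 3 measured of 9 B and plasma cell markers, CD79B among them, averaged 8.78 on SES 3 but 6.57 on SES 4. CD180, a receptor related to the Toll-like receptors and found on B cells and macrophages, was between 5.93 and 7.95 on 11 arrays and 1.10, within background, on BMS 4. CD38, an ectoenzyme abundant on plasma cells, was above background on 4 arrays and highest on BMS 1, at 7.13.

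All 9 antigens of antigen presentation and costimulation were tested. For SES minus BMS 7 were higher and 2 lower, with a median of 0.34, for ZES minus BMS 4 were higher and 5 lower, with a median of -0.48, and for ZES minus SES 3 were higher and 6 lower, with a median of -0.82. On the probe sets used, CD1E had an unadjusted p under 0.05 in the first 2 of these comparisons and no other gene of the list had one in any. The comparisons share arrays. CD1E, which helps to load lipid antigens onto its surface relatives, was 0.47, 0.17, 7.42 and 11.41 with BMS, 12.61, 12.99, 13.55 and 11.44 with SES and 13.09, 4.38, 11.80 and 8.46 with ZES. Every SES signal was above every BMS signal, although SES 4 exceeded BMS 4 by little. BMS 1, BMS 2 and ZES 2 were within background, and the first 2 are the segments of 1 pig. Genes higher on all 4 SES arrays than on any BMS array made up 4.23% of all probe sets and were 1 of these 30.

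The difference of CD1E was 7.78 ± 2.02 for SES minus BMS (95% interval 3.52 to 12.04, adjusted p = 0.0818), 4.57 ± 2.02 for ZES minus BMS (adjusted p = 0.522) and -3.21 ± 2.02 for ZES minus SES (adjusted p = 0.640). Because BMS 1, BMS 2 and ZES 2 were within background, these differences have no reliable size. The SES minus BMS value of CD1E rested on the BMS pigs. Without the pig of BMS 1 and BMS 2 it was 3.23 (adjusted p = 0.359), without the pig of BMS 3 and BMS 4 it was 12.33 (adjusted p = 0.00111), and without BMS 4 alone it was 10.01 (adjusted p = 0.0150). ZES minus BMS was 0.022 (adjusted p = 0.998) without the first pig and 9.11 (adjusted p = 0.0167) without the second. Of all probe sets 69, 396 and 173 passed in these fits for SES minus BMS, against 114 with all arrays. For ZES minus BMS the counts were 4 and 68, against 0. The values without the pig of BMS 3 and BMS 4 are set against 2 BMS signals that are both within background, and that without BMS 4 against 2 such signals of 3, so their sizes are not measured. Over all 31 alternatives the adjusted p for SES minus BMS ranged from 0.00111 to 0.788.

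CD40, the costimulatory receptor of antigen-presenting cells that is also found on vascular cells, was 12.02, 10.47, 10.87 and 10.79 with BMS, 11.38, 11.81, 12.19 and 11.54 with SES and 13.01, 10.05, 11.94 and 11.23 with ZES. The groups overlapped, and SES minus BMS was 0.69 ± 0.48 (adjusted p = 0.540). Its other 2 probe sets gave 1.12 (unadjusted p = 0.0201) and 0.58 (unadjusted p = 0.375) for the same comparison in the same limma fit. CD74, the invariant chain of MHC class II, was 10.48, 8.95, 11.26 and 8.60 with BMS, 10.44, 10.84, 10.36 and 10.27 with SES and 10.41, 11.02, 10.10 and 10.41 with ZES. BMS 2 and BMS 4 were the 2 low arrays, both LAD segments, and BMS 3 was the highest of the 12. SES minus BMS was 0.65 ± 0.46 (adjusted p = 0.546) and ZES minus SES 0.01 (95% interval -0.96 to 0.98).

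CD86, a ligand of CD28 on antigen-presenting cells, was 8.08, 8.61, 7.99 and 9.09 with BMS, 8.80, 9.14, 8.69 and 8.10 with SES and 8.38, 5.80, 9.55 and 7.03 with ZES. The LAD segments ZES 2 and ZES 4 were low, and the groups overlapped otherwise. Its relative CD80 ran from 4.54 to 7.70 on 11 arrays and was within background on BMS 4, at 2.21. CD83, a maturation antigen of dendritic cells, had means of 10.21 ± 0.79 with BMS, 10.55 ± 0.66 with SES and 9.74 ± 0.82 with ZES. CD209, a lectin of dendritic cells and macrophages, was between 8.11 and 10.43 on 11 arrays and 4.99 on ZES 1. CD200, an inhibitory ligand, read 7.88 and 6.60 in 1 BMS pig and 5.22 and 4.30, both within background, in the other. CD58, the ligand of CD2, had means of 6.47 ± 1.24, 5.64 ± 2.42 and 5.93 ± 0.34 with BMS, SES and ZES.

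Of the myeloid antigens, CD53 and CD300C were bright on every array. CD53, a tetraspanin restricted to leukocytes, was 12.55, 11.51, 13.38 and 12.80 with BMS, 13.21, 13.53, 12.84 and 11.71 with SES and 13.98, 12.10, 12.92 and 12.52 with ZES. The stent groups covered the same range, with SES minus BMS at 0.26 (95% interval -0.69 to 1.22) and ZES minus BMS at 0.32 (-0.64 to 1.27). CD300C, an activating receptor of monocytes, ran from 8.80 to 11.84. CD5L, a macrophage protein noticed after its values were seen, was above background in both segments of 1 SES pig, at 7.58 and 7.57, and read 2.55 and 0.75 in the other SES pig. The BMS signals of CD5L, 3.00, 1.57, 3.52 and 4.10, were all within background, and with ZES only ZES 3, at 5.33, was above it (the other 3 were 4.09, 2.15 and 3.88). In the SES pig with high CD5L the 4 measured neutrophil markers averaged 9.65 and 10.15, against 6.46 and 6.21 in the other. On ZES 1 to 4 these markers averaged 8.09, 4.63, 8.17 and 9.83, although CD5L was above background on ZES 3 alone. On BMS 1 to 4 they averaged 4.35, 4.23, 6.25 and 6.28. A link between CD5L and these markers was not tested.

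**Figure D3:**
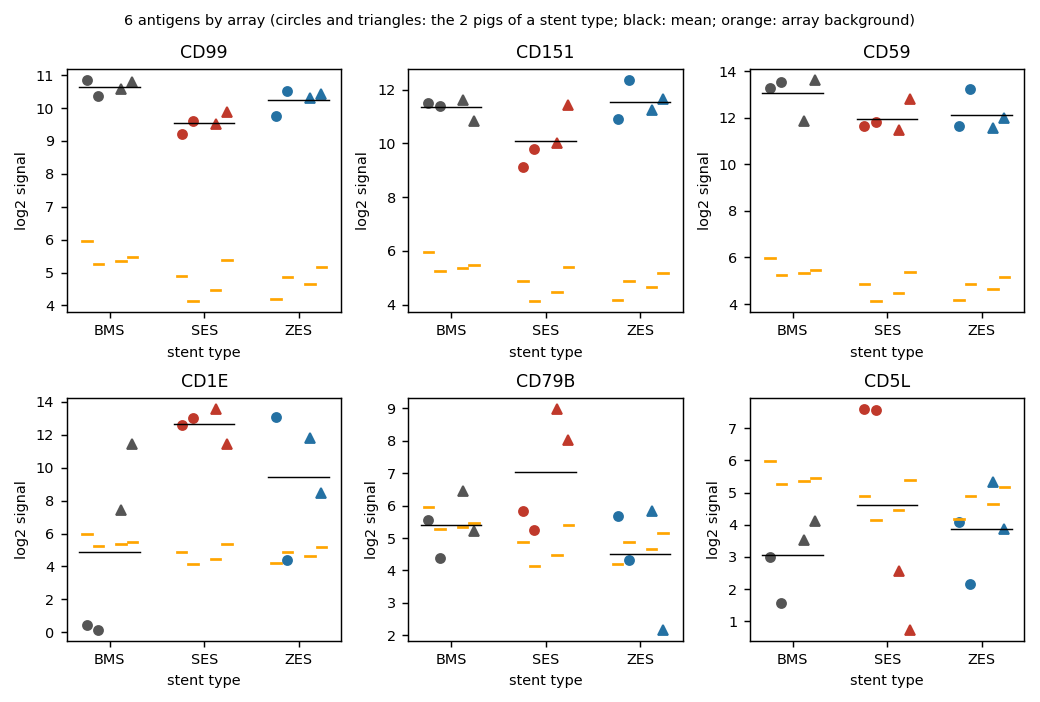
Log2 signal of CD99, CD151, CD59, CD1E, CD79B and CD5L on each array by stent type; circles and triangles are the 2 pigs of a stent type, black bars the group means and orange bars the background of each array. CD99 lies lower on all SES arrays than on any BMS array, while CD79B and CD5L are each high in a single SES pig.

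Tetraspanins organise integrins and other proteins in the membrane. Of the 5 that are not restricted to leukocytes, which leaves CD53 with the myeloid antigens, 4 were lower and 1 higher for SES minus BMS, with a median of -0.30. CD151, which partners laminin-binding integrins and was named after its values were seen, was 11.52, 11.38, 11.62 and 10.84 with BMS, 9.11, 9.80, 10.02 and 11.41 with SES and 10.91, 12.34, 11.25 and 11.64 with ZES. SES 1 to SES 3 were lower than every BMS and ZES array, and SES 4, the only LAD segment with SES, lay among them. SES minus BMS was -1.25 ± 0.42 (95% interval -2.14 to -0.37, adjusted p = 0.167) and ZES minus SES 1.45 ± 0.42 (0.57 to 2.34, adjusted p = 0.213). Without SES 4 these were -1.70 (adjusted p = 0.0207) and 1.90 (adjusted p = 0.0189), in fits where 413 and 157 of all probe sets passed, against 114 and 12 with all arrays. Without the pig of SES 1 and SES 2 they were -0.62 (adjusted p = 0.806) and 0.82 (adjusted p = 0.985). With the spike-in covariate SES minus BMS was -0.73 (adjusted p = 0.906), in a fit where 0 of all probe sets passed. Over all 31 alternatives the adjusted p ranged from 0.0207 to 0.906 for SES minus BMS and from 0.0189 to 0.985 for ZES minus SES. The smooth muscle markers showed the same 3 low arrays and the same exception; their part in this difference was not tested.

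CD63, a tetraspanin of late endosomes and secretory granules, was 13.45, 13.36, 13.27 and 12.75 with BMS, 12.74, 13.30, 12.50 and 13.31 with SES and 12.62, 13.38, 13.36 and 13.05 with ZES. Its range over the 12 arrays was 0.95, and SES minus BMS was -0.25 (95% interval -0.83 to 0.33). CD9, another tetraspanin, averaged 11.33 ± 0.57 on BMS, 10.57 ± 0.70 on SES and 10.84 ± 0.42 on ZES arrays (SES minus BMS -0.76 ± 0.37, adjusted p = 0.364). CD81, part of the B cell co-receptor, had means of 7.55, 7.26 and 7.03. CD82 had means of 6.25, 7.01 and 7.53, and its 2 probe sets differed in sign, with SES minus BMS at 0.76 on the one used and -0.92 on the other.

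The complement regulators protect host cells from complement. CD59, which blocks the membrane attack complex, was 13.28, 13.56, 11.85 and 13.61 with BMS, 11.63, 11.82, 11.50 and 12.80 with SES and 11.67, 13.23, 11.55 and 12.01 with ZES. BMS 3 was low among the BMS arrays, and SES 4 and ZES 2 were high in their groups, so the groups overlapped. BMS 3 was an RCA segment, and SES 4 and ZES 2 were LAD segments. CD59 was higher in the LAD of all 5 pigs, as described below, and SES had fewer LAD segments than BMS or ZES. The part of the artery in the stent differences of CD59 was not tested. SES minus BMS was -1.14 ± 0.43 (95% interval -2.04 to -0.24, adjusted p = 0.218) and ZES minus BMS -0.96 ± 0.43 (-1.86 to -0.06, adjusted p = 0.524). The dimmer of its 2 probe sets gave -1.87 and -0.084. CD46, a cofactor for inactivating C3b and C4b, had means of 10.11, 10.43 and 10.62 with BMS, SES and ZES and no interval away from 0. CD55, which speeds the decay of the convertases, had the widest range of the 3, from 1.54 on ZES 3 to 10.53 on BMS 1. It had 5 probe sets, and the one used gave 0.34 for SES minus BMS (95% interval -2.49 to 3.16). The second brightest gave 3.22 but was above background on 7 arrays. The remaining ones gave -0.52, -1.45 and -0.95 and were above it on 7, 4 and 1. Its direction and size are therefore not settled.

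Of the broadly expressed antigens, CD99 separated SES from BMS. CD99, which leukocytes and endothelium use during passage through the vessel wall, was 10.84, 10.36, 10.58 and 10.80 with BMS, 9.20, 9.60, 9.52 and 9.87 with SES and 9.76, 10.50, 10.31 and 10.42 with ZES. All 4 SES signals were below all 4 BMS signals, a pattern that 4.51% of all probe sets showed and 1 of these 30 genes. ZES 1 lay inside the SES range, and the other ZES arrays lay inside the BMS range or just below it. The means were 10.65 ± 0.22, 9.55 ± 0.28 and 10.25 ± 0.33 (mean ± SD, n = 4). SES minus BMS was -1.10 ± 0.29 (95% interval -1.72 to -0.49, adjusted p = 0.0867), a 2.14-fold lower signal, and ZES minus SES was 0.70 ± 0.29 (adjusted p = 0.421). With the spike-in controls, which were also lower with SES, as a covariate, the SES minus BMS difference was -0.65 (adjusted p = 0.864). With the GAPDH measure it was -1.07 (adjusted p = 0.542). Neither measure overlapped between SES and BMS arrays. With either as a covariate 0 of all probe sets passed for SES against BMS, where 114 passed without one. Without SES 4 it was -1.21 (adjusted p = 0.0493) and without the pig of ZES 1 and ZES 2 it was -1.10 (adjusted p = 0.0491). In these fits 413 and 352 of all probe sets passed, more than the 114 with all arrays. Over all 31 alternatives the adjusted p of CD99 for SES minus BMS ranged from 0.0491 to 0.864.

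CD47, the ligand of SIRPA that restrains phagocytosis, was 11.59, 11.08, 10.90 and 11.21 with BMS, 12.13, 12.26, 11.39 and 10.95 with SES and 12.54, 10.31, 11.78 and 10.82 with ZES. Its spread was widest with ZES, the groups overlapped, and SES minus BMS was 0.49 (95% interval -0.39 to 1.37). CD164, a sialomucin, stayed between 11.23 and 12.80. CD34, found on endothelium and progenitor cells, was 7.16, 6.95, 6.68 and 5.65 with BMS, 6.99, 6.09, 6.43 and 6.74 with SES and 4.17, 7.49, 6.62 and 6.66 with ZES. It was above background on all arrays but ZES 1, and SES minus BMS was -0.045 (95% interval -1.49 to 1.40). CD93, a receptor of endothelium and myeloid cells, was between 5.54 and 7.48 on 11 arrays and 1.32 on BMS 4.

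The 2 arteries were compared within the 5 pigs that had both, with the pig as a fixed block. No tested gene passed the adjusted threshold, as 0% of all probe sets did, and 5 had an unadjusted p under 0.05 where 6.86% of all probe sets did: 1 was higher in the LAD (3.80% of all probe sets) and 4 were lower (3.07%). The median LAD minus RCA difference was -0.58, with 11 higher and 19 lower, beside 0.051 over all probe sets, of which 46.55% were lower. Among the antigens of presentation and costimulation 8 of 9 were lower, as were 2 of 2 B cell and 2 of 2 myeloid antigens. T and NK cell antigens were 2 higher and 2 lower, and endothelial antigens 1 and 1. Tetraspanins were 3 higher and 2 lower, and complement regulators and broadly expressed antigens were each 2 higher and 1 lower. Both the size and the sign of the median depended on the probe sets. It was -0.11 when a gene's probe sets were averaged and 0.16 with the dimmest of each gene. With the dimmest only 26 genes were tested, and some of these probe sets were near background. Those of CD300C and CD164 were above it on 6 and 4 arrays.

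CD53 was lower in the LAD of all 5 pigs. Its LAD minus RCA differences were -1.03 in the pig of BMS 2, -0.58 in that of BMS 4, -1.14 in that of SES 4, -1.89 in that of ZES 2 and -0.40 in that of ZES 4. The mean was -1.01 ± 0.27 (95% interval -1.60 to -0.41, adjusted p = 0.721). All 3 of its probe sets had this sign, the other 2 at -0.62, lower in 5 of 5 pigs, and -0.76, lower in 4 of 5. CD40 was also lower in all 5 LADs, at -1.55, -0.08, -0.65, -2.97 and -0.71 in the same order, with a mean of -1.19 ± 0.38 (adjusted p = 0.721). The pig of BMS 4 contributed almost nothing to it, and its other probe sets gave -0.18 and 0.38, each lower in 3 of 5 pigs, so the direction rests on 1 probe set. CD79B, at -1.19, -1.24, -0.94, -1.35 and -3.65, had a mean of -1.67 ± 0.72 (adjusted p = 0.723), but 4 of its 5 LAD signals were within background. Genes lower in the LAD of all 5 pigs made up 3.77% of all probe sets and were these 3 of the 30.

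CD59 went the other way and was higher in the LAD of all 5 pigs, by 0.27, 1.77, 1.30, 1.56 and 0.46, as 4.71% of all probe sets were. Its mean was 1.07 ± 0.29 (95% interval 0.45 to 1.69, adjusted p = 0.721), and its second probe set gave 0.83, higher in 4 of 5 pigs. CD47 was lower in 4 of 5, at -0.50, 0.30, -0.45, -2.22 and -0.95, with a mean of -0.76 ± 0.35 (adjusted p = 0.723). Its second probe set, above background on all 12 arrays, gave -0.18 but was lower in only 2 of 5 pigs, so the direction is not settled. The third gave 1.93, but it was above background on 7 arrays and has no reliable size. Over the 26 alternatives run, the adjusted p of each of CD53, CD40, CD59 and CD47 lay between 0.547 and 0.947.

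The cell type markers differed between the arteries too. Heart muscle markers, 7 of 8 measured, were higher in the LAD of 4 of 5 pigs, by 2.12 on average (range -0.85 to 4.50), and smooth muscle markers were higher in 3 of 5, by 1.15 (-0.37 to 3.13). Of the heart muscle signals 53.57% were above background with BMS, 53.57% with SES and 57.14% with ZES. No heart muscle marker was above it on every array, so the size of that difference is not reliable. T and NK cell markers were lower in 4 of 5, by a mean difference of -0.63 (-1.47 to 0.56), and monocyte and macrophage markers in 2 of 5, with a mean difference of -0.15 (-1.59 to 0.58). The part of these shifts in the values of CD53, CD40 and CD59 was not tested.

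**Figure D4:**
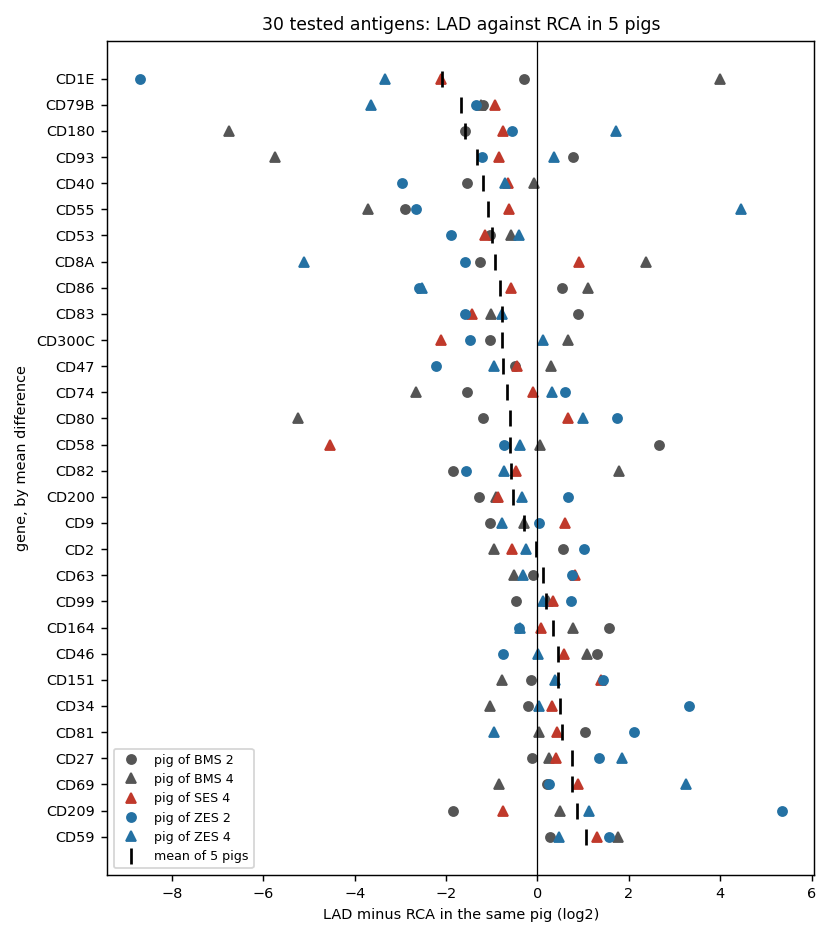
LAD minus RCA log2 differences of the 30 tested genes in each of the 5 pigs (symbols) with their mean (black bars), sorted by the mean. CD79B, CD40 and CD53 lie left of 0 in all 5 pigs and CD59 lies right of it in all 5, while most genes straddle 0.

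Segments of a pig could be compared with segments of different pigs under the same stent. The mean absolute difference over all tested probe sets had a median of 0.91 within a pig (6 pairs) and 0.95 between the 2 pigs of a stent type (12 pairs). The difference of the 2, between minus within, had a median of -0.016 over all tested probe sets. Some antigens varied more between pigs than within them, and others less. CD5L differed by 1.20 within and 3.01 between pigs, CD1E by 3.14 and 4.83, CD3D by 2.35 and 3.31, and CD200 by 0.78 and 1.56. CD38, at 1.51 and 2.25, and CD79B, at 1.49 and 1.94, were of the same kind. Among the broad antigens, CD99, at 0.38 and 0.32, and CD63, at 0.51 and 0.39, varied little within or between pigs. CD55, at 2.47 and 2.75, varied more. CD4, at 2.63 and 1.87, and CD209, at 1.79 and 1.39, varied more within a pig. So did, by less, CD8A at 1.88 and 1.76, CD69 at 1.05 and 0.93, CD2 at 0.59 and 0.56 and CD8B at 1.94 and 1.89. CD5L, CD3D, CD38, CD4, CD69 and CD8B were mostly within background, and CD1E, CD200, CD79B, CD55 and CD8A were within it on some arrays. With 2 pigs per stent these values are descriptions.

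**Figure D5:**
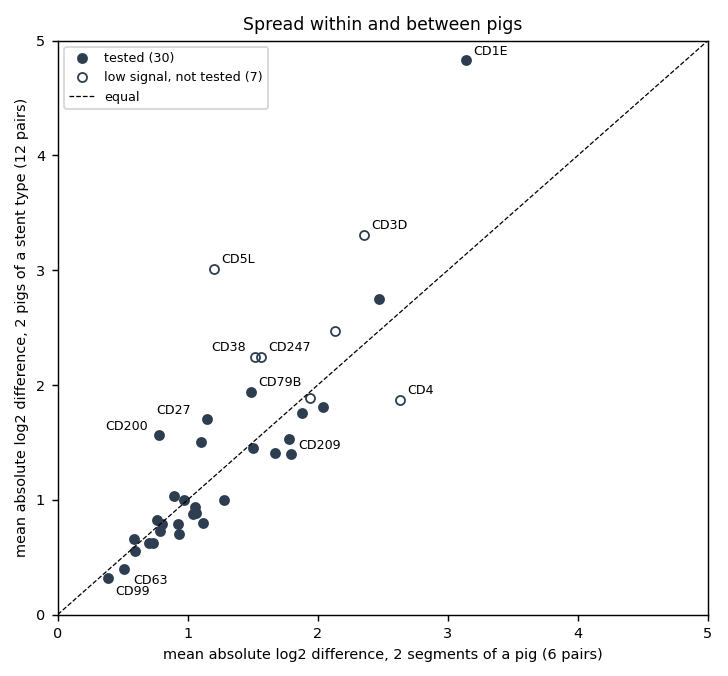
For each of the 37 genes, the mean absolute log2 difference between the 2 segments of a pig (horizontal axis, 6 pairs) and between segments of the 2 pigs of a stent type (vertical axis, 12 pairs); open points were under the filter and the dashed line marks equal spread. CD5L, at 1.20 and 3.01, and CD1E, at 3.14 and 4.83, lie above the line, and CD4 lies below it.

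Many proteins with a CD number go by another gene symbol, and a list of 96 such genes, drawn up by name, served as a comparison. Of these 60 had a probe set and 50 were tested. For SES against BMS 1 was called, ICAM1 (CD54), the endothelial ligand of leukocyte integrins, and none was called for ZES against BMS, ZES against SES or the arteries. The share of all probe sets called was 0.679% for SES against BMS and 0.0714% for ZES against SES. It was 0% for ZES against BMS and for the arteries. ICAM1 was 7.23, 7.78, 7.45 and 9.29 with BMS, 10.42, 11.29, 10.10 and 10.20 with SES and 10.96, 8.09, 9.61 and 8.98 with ZES. Every SES signal was above every BMS signal, and SES minus BMS was 2.57 ± 0.55 (adjusted p = 0.0401). The call held in 16 of 31 alternatives, with adjusted p from 0.0132 to 0.830 and differences from 1.77 to 3.52. It was lost without any 1 of BMS 1 to BMS 3 or SES 1 to SES 3. Leaving out either SES pig or the pig of BMS 1 and BMS 2 lost it too. The same held without the pig block or the variance trend, and with quantile or median scaling. Either covariate also lost it, with 0 of all probe sets passing for SES against BMS. At an unadjusted p under 0.05 there were 13 of the 50 for SES against BMS (11 higher), where 14.3% of all probe sets passed and 7.33% were higher, and 12 for ZES against BMS (11 higher), where 8.99% passed and 4.72% were higher. There were 6 for ZES against SES (3 higher), against 10.0% and 5.66%, and 5 for LAD against RCA (1 higher), against 6.86% and 3.80%.

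The next genes by p for SES minus BMS were IL2RG (CD132), the common chain of several interleukin receptors, at 1.72 ± 0.43 (adjusted p = 0.0722), and ITGB2 (CD18), the leukocyte integrin beta chain, at 3.16 ± 0.82 (adjusted p = 0.0823). MCAM (CD146), of smooth muscle and endothelium, was lower, at -2.17 ± 0.58 (adjusted p = 0.0902). It was 8.48, 8.09, 8.54 and 10.59 on SES 1 to 4 against 9.96 to 11.57 with BMS. SES 4, the only LAD segment with SES, was again the high array, as for CD151. For ZES minus BMS, IL7R (CD127), above background on 2 of the 4 BMS arrays, gave 3.49 ± 1.05 (adjusted p = 0.405). IL2RA (CD25) was above background on no BMS array and on 3 ZES arrays, so no size is given (adjusted p = 0.424). In the arteries, CXCR4 (CD184), the receptor of CXCL12 on leukocytes, was lower in the LAD by a difference of -1.56 ± 0.36 and SIRPA (CD172a), the partner of CD47, by -0.99 ± 0.33 (adjusted p = 0.721 for both).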

How the data were processed

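Biotin-labelled cDNA from 12 segments was hybridised to an Affymetrix porcine array, per the labels' protocols. Per the submitters' processing notes, the deposited log2 signals come from MAS5 in Affymetrix Expression Console 5.0. The log base was read from the values, and what target the authors scaled to is not given in the sources used here. The file holds 24123 probe sets; 124 controls and then the 30% with the lowest mean were removed, leaving 16799. Symbols came from the platform's annotation, and all 37 matched their gene ID in RefSeq. No further normalization and no pseudocount (0) were applied.

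The stent comparisons used all 12 arrays in limma 3.58.1 (R 4.3.3, with statmod 1.5.0), with a variance trend and the pig as a random block (consensus correlation -0.0322), and arteries over 10 arrays with the pig as a fixed block. All tests are two-sided, adjusted by Benjamini-Hochberg over all probe sets, at 0.05, and the procedure was tested on simulated data. Given in full were members past the adjusted threshold, members with non-overlapping groups and an unadjusted p under 0.05, the 5 with the smallest p between arteries, the panel CD2, CD4, CD8A, CD34, CD40, CD47, CD74 and CD86, and the 3 of highest mean (CD63, CD53, CD59). CD36 and CD44, also on the panel, had no probe set of that symbol alone. Members and lists were chosen with earlier results of these data known. Alternatives changed the filter, normalization, pseudocount (32), probe set per gene, block, variance trend, covariates and arrays. Sequences and coordinates were not used here.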

Additional observations from a re-analysis of the deposited data

Results flagged for a closer look

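Each of the 111 sets of 4 arrays (37 genes in 3 stent groups) was checked for a single array far from the other 3, and 6 were found, where chance at 1 in 20 gives 5.55. CD300C was 11.84 on ZES 1 and 10.20 to 10.35 on the other ZES arrays. CD58 was 8.32 on BMS 2 against 5.65 to 5.98 on the other BMS arrays, and 2.04 on SES 4, within background, against 6.59 to 7.27 on the other SES arrays. CD81 was 6.73 on BMS 1 against 7.78 to 7.87 on the others. CD9 was 11.46 on ZES 3 against 10.60 to 10.69. CD38 was 3.08 on SES 3 against 4.98 to 5.28, with SES 3 and SES 4 both within background. No array was named more than once.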

How the results depend on the processing

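The count of members past the adjusted threshold was 0 in every comparison with the settings used. For SES against BMS it was 1 (CD1E) with no filter and with a pseudocount, 0 to 2 without 1 array and 0 to 2 without 1 pig. It was 0 and 0 to 1 for ZES against BMS, 0 to 1 and 0 for ZES against SES, 0 to 1 and 0 to 1 for the F test, and 0 and 0 for the arteries. For SES against BMS, 114 of all probe sets passed with the settings used, 183 with no filter and 196 with a pseudocount. The count of 2 members came without SES 4 and without the pig of ZES 1 and ZES 2, where 413 and 352 passed.

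The median SES minus BMS difference of 0.25 was -0.064 with the dimmest probe set of each gene, 0.45 with median centring, 0.025 with probe sets averaged, -0.053 with the spike-in covariate and -0.15 with the GAPDH covariate, -0.18 to 0.41 without 1 array and -0.096 to 0.31 without 1 pig. That for ZES minus BMS, -0.39, was -0.10 with no filter, -0.067 with the lowest 50% removed, -0.16 with quantile normalization, -0.14 with a pseudocount, -0.19 with probe sets averaged and -0.20 with the spike-in covariate, -0.39 to -0.048 without 1 array and -0.39 to 0.0041 without 1 pig. ZES minus SES, -0.20, was 0.13 with the GAPDH covariate, -0.30 to 0.037 without 1 array and -0.49 to 0.0054 without 1 pig. LAD minus RCA, -0.58, was 0.16 with the dimmest probe sets, -0.31 with a pseudocount, -0.11 with probe sets averaged, -0.50 to -0.23 without 1 array and -0.47 to -0.20 without 1 pig. With the dimmest probe sets only 26 genes were tested, some of them near background. The cause of these shifts in the medians was not tested.

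Of the 15 member differences with an unadjusted p under 0.05, the LAD minus RCA difference turned to 0.38 for CD40 and 1.93 for CD47 with the dimmest probe set, and to 0.33 for CD47 with probe sets averaged. That CD47 probe set, also part of the average, was above background on 7 of the 12 arrays. The others of the 15 kept their sign in every alternative run. Of the other 105 differences, 38 kept their sign in every alternative run and 0 passed the adjusted threshold in any. Median centring put the median of all probe sets at 0.17 for SES and 0.14 for ZES against BMS. Leaving out the pig block changed no call of a member. No paired analysis by replicate number was possible because the labels give none.

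The 12 arrays from 6 pigs limit the precision, and signals near background, as for most T cell antigens, have no reliable size. MAS5 values listed at 0, 41 to 1153 per array, mark a floor.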
